A study of Mus musculus with 12 samples.

Results

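The response of wild-type mouse lung to extract of Dermatophagoides farinae (D.f.), a house dust mite, was measured in every wild-type library that received either the untreated extract or phosphate-buffered saline (PBS). These were 7 of the 12 libraries of the study, 3 with PBS and 4 with D.f. extract, chosen by their labels. Earlier results of these data were known when that choice was made. They came from 2 sets of files. The set built around RNase III, an enzyme that cuts double-stranded RNA, gave PBS libraries 1 and 2 and D.f. libraries 3 and 4, where the extract had not been treated with the enzyme. The set built around mice lacking both Tlr3 and Mavs, here the knockout set, gave wild-type PBS library 1 and wild-type D.f. libraries 3 and 4. The remaining 5 libraries (enzyme-treated extract, or double knockout mice) entered only 1 alternative fit. All 7 samples were whole lungs of wild-type mice of the B6 strain background, 6 to 8 weeks old, taken 14 to 16 h after treatment. The labels give neither the dose or route of the extract nor whether replicates were separate animals, so the p-values measure the spread between these samples, which may be technical. The knockout set holds 1 wild-type PBS library, which was assumed to vary like the replicated groups.

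House dust mite extracts hold allergens, proteases, chitin and microbial products, and mite allergens are a common trigger of allergic asthma. Nucleic acids and microbial products are sensed in the lung by Toll-like receptors, by cytosolic RNA receptors that signal through Mavs, and by DNA sensors. Type I interferon made in response acts through Stat2 and Irf9 on the interferon-stimulated response element of its target genes, and Toll-like and interleukin 1 receptors activate NF-kB. These factors switch on chemokines that bring monocytes, NK cells, T cells and neutrophils from the blood, and acute phase proteins that are secreted into the airway.

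Levels are given in CPM, read counts divided by the size of their library after TMM scaling and multiplied by a constant. Summed levels of a list cover all its genes counted in both sets, tested or not, and were not TMM scaled. In each sentence of levels the PBS values are in the order PBS 1 and 2 of the RNase III set and PBS 1 of the knockout set, and the D.f. values in the order D.f. 3 and 4 of the RNase III set and D.f. 3 and 4 of the knockout set. A gene was called when its Benjamini-Hochberg adjusted p in edgeR's quasi-likelihood test, with the set as a term, was below 0.05, and changes are log2 fold changes of D.f. against PBS ± SE. Each library held 16952759 to 25714074 reads assigned to a gene, and 3 reads, the most that a count of 0 allows, corresponded to 0.125 to 0.183 CPM. Such limits cover counting error only. The 7 libraries parted first by set: the first principal component, 52.0% of the variance, had every RNase III set library above 0 and every knockout set library below 0, while the second, 29.8%, had the 3 PBS libraries below 0 and the 4 D.f. libraries above 0. Lung markers were present throughout. Sftpc, surfactant protein C of alveolar type 2 cells, stood at 4474, 7907 and 4999 CPM with PBS and 3862, 2643, 4681 and 4598 CPM with D.f. extract. Ager, the type 1 cell receptor, stood at 1201, 1593 and 1077 CPM with PBS and 1059.6, 795, 1229 and 1278 CPM with D.f. extract. Neither was called, nor were Pecam1 of endothelium (-0.01 ± 0.14) or Col1a1 of fibroblasts (0.13 ± 0.14). Some libraries differed in their levels of cell type genes. Summed CPM of 12 club and goblet cell genes lay between 15330.0 and 31360.0 for RNase III set libraries, but between 1460.0 and 2107 for those of the knockout set. Summed CPM of 20 genes of cardiac and pulmonary vein muscle was 375.7 in PBS 1 and 3240.0 in PBS 2 of the RNase III set. It was 1027 to 2598 in the other 5 libraries. In bulk tissue, fewer cells of a type and less RNA per cell cannot be told apart. The symbol tables of the sets also differed, and the part of tissue taken, annotation or batch in these levels was not tested.

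Of 14953 genes tested, 1372 were called higher with D.f. extract (9.18%) and 880 lower (5.89%). The rises were larger than the falls: 268 genes rose and 22 fell by at least 4-fold, 59 rose and 1 fell by at least 16-fold, and 713 rises and 647 falls were under 2-fold. The median change was 0.95 on the log2 scale for genes called higher and -0.71 for genes called lower, against -0.01 for all genes tested. Without any overlap between the 3 PBS and 4 D.f. libraries stood 1706 of all genes tested on the higher side (11.4%) and 1233 on the lower side (8.25%), of which 1101 and 555 were called. Within the RNase III set alone 1068 genes were called higher (7.14%) and 785 lower (5.25%), and within the knockout set alone 352 higher (2.35%) and 26 lower (0.174%). Both sets moved the same way for 1364 of the 1372 genes called higher and for all 880 called lower. Calling genes by a fit over both sets favours such a result, so it is not a separate test. The median fall of the genes called lower was -0.82 within the RNase III set and -0.52 within the knockout set, and their fall was the larger in the knockout set for 165 of 880. For the genes called higher the medians were 0.99 and 0.89, with the larger rise in the knockout set for 563 of 1372. A direct test of the difference between the sets called 0 genes in edgeR (0%), with 833 at an unadjusted p under 0.05, while DESeq2 called 54. Without PBS 2 of the RNase III set edgeR called 126 genes for that difference.

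**Figure D1:**
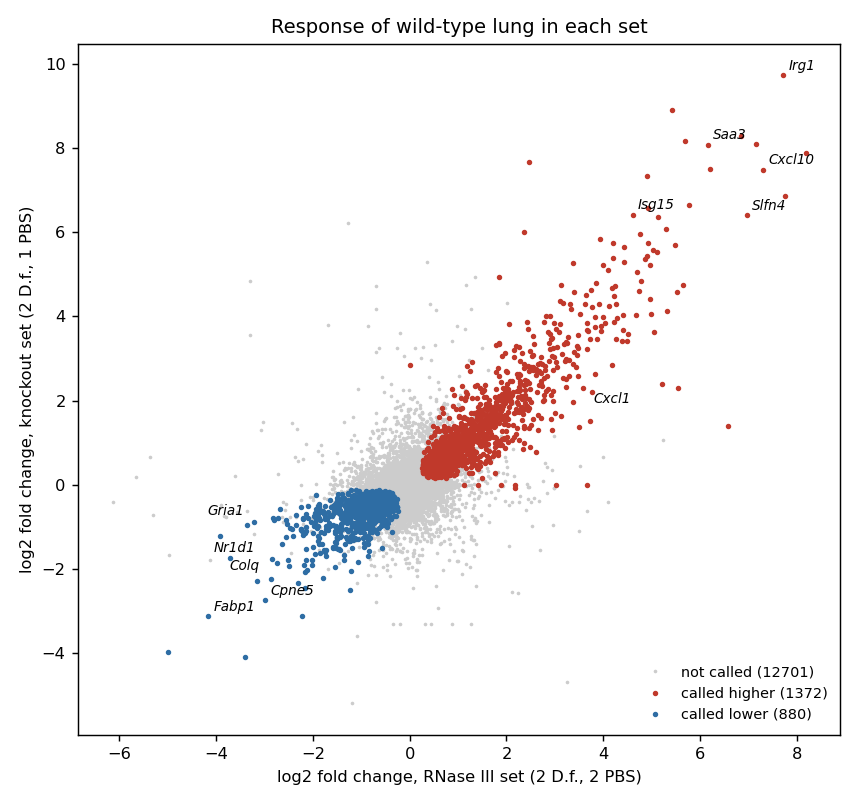
Log2 fold change with D.f. extract within the RNase III set (horizontal axis) and within the knockout set (vertical axis) for each of 14953 genes tested; red points were called higher (1372) and blue points lower (880) over the 7 libraries, and grey points were not called (12701). Fitted changes of genes with few PBS reads depend on the prior count. Called genes lie in the upper right and lower left, which calling by a fit over both sets favours, with the falls closer to 0 on the vertical axis.

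Gene lists are described by how many tested members edgeR called over the 7 libraries, to be read against the 9.18% and 5.89% of all genes tested, and by their median change, against -0.01. The lists were chosen with earlier results of these data known, so their counts, medians and order are descriptions and not tests. Lymphocyte and monocyte chemokines had the highest median change of the 55 lists described. Of 15 listed genes 14 were tested, and 12 were called higher and none lower, with a median change of 4.09. The genes of the ligands of the receptor Cxcr3, which draw activated T and NK cells, lie side by side on chromosome 5, and their transcripts rose together. The annotation used for coordinates lists Cxcl9 and Cxcl10 as protein-coding, but Cxcl11 as a processed transcript. Whether Cxcl11 gives a working protein in these mice was not tested. Cxcl10 (chromosome 5, 92775664 to 92777915, minus strand; NCBIM37) stood at 3.85, 2.83 and 1.73 CPM with PBS and 471.5, 569.9, 415 and 208 CPM with D.f. extract. Every D.f. library exceeded every PBS library by a wide margin, and the rise was 7.35 ± 0.33 (adjusted p = 2.35e-05). Cxcl9 (chromosome 5, 92750357 to 92757105, minus strand) stood at 1.13, 0.3902 and 0.288 CPM with PBS and 94.5, 116, 87.5 and 75.2 CPM with D.f. extract and rose by 7.38 ± 0.30 (adjusted p = 2.27e-05). Cxcl11 (chromosome 5, 92788570 to 92794511, minus strand) had 1, 0 and 2 reads with PBS and 171, 260, 781 and 312 reads with D.f. extract, or 3 and 1524 in all, a ratio per sequenced read of 328.1 (exact 95% interval 112.1 to 1593) that covers counting error only. The CC chemokine Ccl4, which draws T cells and monocytes, stood at 0.415, 0.439 and 0.115 CPM with PBS and 23.9, 14.8, 6.92 and 5.64 CPM with D.f. extract and rose by 5.52 ± 0.30 (adjusted p = 6.67e-05). Ccl7, a monocyte chemokine of the Ccr2 axis, stood at 1.36, 1.12 and 0.864 CPM with PBS and 59.5, 54.7, 26.9 and 14.6 CPM with D.f. extract and rose by 5.26 ± 0.31 (adjusted p = 7.14e-05). The knockout set libraries with D.f. were lower than those of the RNase III set for both CC chemokines, yet above all PBS libraries.

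Chemokines of neutrophils rose as well, from a list in which 6 of 12 tested genes were called higher (15 listed) and none lower. Cxcl3, a ligand of Cxcr2 on neutrophils, stood at 1.01, 0.7804 and 0.461 CPM with PBS and 59.2, 11.2, 37.25 and 25.8 CPM with D.f. extract and rose by 5.52 ± 0.69 (adjusted p = 0.00174). Cxcl2, of the same cluster on chromosome 5, stood at 1.13, 0.488 and 0.461 CPM with PBS and 41.6, 8.89, 9.56 and 6.06 CPM with D.f. extract and rose by 4.76 ± 0.68 (adjusted p = 0.00322). Cxcl1 stood at 2.78, 2.15 and 1.32 CPM with PBS and 44.2, 14.2, 7.82 and 5.15 CPM with D.f. extract and rose by 3.18 ± 0.49 (adjusted p = 0.00466). For all 3 the groups did not overlap, although the D.f. libraries themselves were spread. Tnf, the macrophage cytokine, rose by 2.78 ± 0.33 (adjusted p = 0.001399) and Csf1, the growth factor of macrophages, by 1.45 ± 0.10 (adjusted p = 0.000113). Il6, an inducer of the acute phase response, did not pass: it stood at 0.118, 0.878 and 2.71 CPM with PBS and 10.6, 7.49, 2.79 and 1.21 CPM with D.f. extract, higher in both D.f. libraries of the RNase III set but within or near the PBS level in the knockout set (pooled change 2.00 ± 0.95, adjusted p = 0.202; unadjusted p of the difference between sets 0.00262). Of 9 homeostatic chemokines 7 were tested and 3 were called higher. Cxcl13, which guides B cells, stood at 1.48, 2.097 and 1.498 CPM with PBS and 16.9, 29.3, 13.8 and 14.1 CPM with D.f. extract and rose by 3.51 ± 0.26 (adjusted p = 0.000168). Ccl9 rose by 2.32 ± 0.34 and Cxcl14 by 0.63 ± 0.11.

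**Figure D2:**
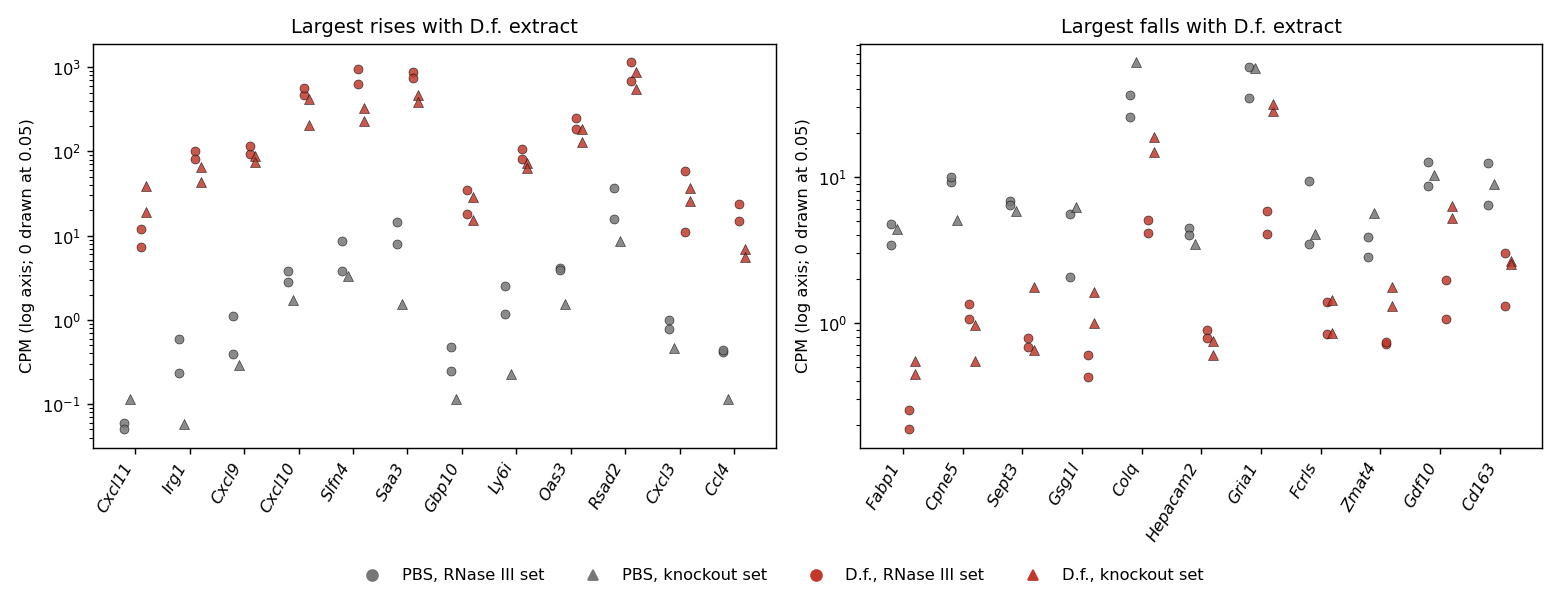
CPM on a log axis of the 12 genes with the largest rise (left) and 11 of the 12 with the largest fall (right) among called genes whose average log2 CPM reached 1 or more; circles are RNase III set libraries, triangles knockout set libraries, grey PBS and red D.f. extract, with no bars. A count of 0 is drawn at 0.05. In each gene the 4 red points lie on 1 side of the 3 grey points, which the choice of these genes required.

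Receptors and adaptors of nucleic acid sensing were broadly higher: 15 of 18 tested genes (19 listed) were called higher and none lower, with a median change of 1.48. Tlr3, the endosomal receptor of double-stranded RNA, stood at 48.2, 32.7 and 42.9 CPM with PBS and 106, 120.5, 158 and 114 CPM with D.f. extract and rose by 1.55 ± 0.17 (adjusted p = 0.00101). Ifih1 (MDA5), the cytosolic receptor of long double-stranded RNA, stood at 79.1, 64.6 and 65.5 CPM with PBS and 369.5, 468, 495 and 378 CPM with D.f. extract and rose by 2.62 ± 0.16. Its partner receptor Ddx58 (RIG-I) rose by 2.37 ± 0.18, and the endosomal DNA receptor Tlr9 by 2.75 ± 0.22. Zbp1, a sensor of Z-form nucleic acids, stood at 12.7, 7.51 and 5.13 CPM with PBS and 273, 354, 223.5 and 158 CPM with D.f. extract and rose by 5.05 ± 0.25 (adjusted p = 4.37e-05). Mavs, the adaptor through which Ifih1 and Ddx58 signal, was not called: it stood at 32.1, 40.9 and 36.8 CPM with PBS and 30.2, 31.7, 34.7 and 32.6 CPM with D.f. extract (-0.20 ± 0.11, adjusted p = 0.266). Its D.f. values, 30.2 to 34.7 CPM, overlapped the PBS values, 32.1 to 40.9 CPM.

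Transcripts of the interferons themselves were scarce. Ifnb1, the first type I interferon made after RNA sensing, had 0, 0 and 0 reads with PBS and 7, 10, 2 and 0 reads with D.f. extract, too few for the filter of the test. Ifna2 had 0, 0 and 0 reads with PBS and 0, 4, 1 and 1 reads with D.f. extract. Reads of Ifnb1 were thus seen in 3 of 4 D.f. libraries and in none of the PBS libraries, each of which allows up to 3 reads. Ifng, the interferon of T and NK cells, stood at 0.0592, 0.146 and 0.115 CPM with PBS and 1.27, 1.91, 1.05 and 0.424 CPM with D.f. extract and rose by 3.47 ± 0.56 (adjusted p = 0.00583). Its PBS level rests on few reads, with 1, 3 and 2 reads with PBS and 30, 41, 21 and 7 reads with D.f. extract. Of 26 listed interferons, receptors and signalling genes 20 were tested, and 14 were called higher and none lower. Of the transducers of the type I receptor, Stat2 rose by 2.74 ± 0.24 and Irf9 by 1.75 ± 0.14. Irf7, the factor that amplifies interferon production, stood at 53.3, 18.7 and 11.2 CPM with PBS and 869, 1066, 776 and 634 CPM with D.f. extract and rose by 5.19 ± 0.46 (adjusted p = 0.000329).

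Interferon targets were called throughout: each of the 37 tested type I interferon-stimulated genes (40 listed) and of the 25 interferon-gamma-associated genes was called higher, with medians of 3.14 and 3.16. No gene of either list overlapped between the groups, apart from Tgtp1, which had no read in the knockout set. Isg15, a ubiquitin-like modifier, stood at 30.2, 9.12 and 2.995 CPM with PBS and 467, 484, 292 and 222 CPM with D.f. extract and rose by 5.16 ± 0.54 (adjusted p = 0.000739). Rsad2 (viperin), an antiviral enzyme, stood at 36.4, 15.6 and 8.64 CPM with PBS and 687, 1143, 870.5 and 554 CPM with D.f. extract and rose by 5.57 ± 0.47 (adjusted p = 0.00028). Oas3, which makes the second messenger that activates RNase L, stood at 4.09, 3.902 and 1.56 CPM with PBS and 184, 249.98, 186 and 128 CPM with D.f. extract and rose by 6.03 ± 0.27 (adjusted p = 2.35e-05). In these 3 genes the PBS library of the knockout set was the lowest of all 7, and for Isg15 the change was 6.42 ± 0.82 within that set and 4.61 ± 0.52 within the RNase III set. Oasl1 rose by 5.18 ± 0.48 and Oas2 by 4.69 ± 0.27. Bst2 (tetherin), which holds budding virus at the cell surface, stood at 48.6, 52.3 and 29.4 CPM with PBS and 513, 448, 328 and 278 CPM with D.f. extract and rose by 3.30 ± 0.12 (adjusted p = 2.27e-05). Lgals3bp, a secreted glycoprotein, rose by 2.78 ± 0.11. Slfn4, a Schlafen family gene of myeloid cells, stood at 3.85, 8.63 and 3.28 CPM with PBS and 624.5, 953, 331 and 229.9 CPM with D.f. extract and rose by 6.78 ± 0.37. Among interferon-gamma targets, guanylate-binding proteins attack membranes around intracellular microbes. Gbp2 stood at 47.45, 42.97 and 39.5 CPM with PBS and 523, 648, 588 and 405 CPM with D.f. extract and rose by 3.68 ± 0.17 (adjusted p = 3.10e-05). Gbp6 rose by 4.36 ± 0.22, and Gbp10 stood at 0.474, 0.244 and 0.115 CPM with PBS and 18.2, 34.6, 28.7 and 15.3 CPM with D.f. extract (adjusted p = 0.000162); both belong to a family of near-identical copies whose reads may be shared. Tgtp2, an immunity-related GTPase, rose by 3.25 ± 0.19.

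The promoters of these genes were read for sequence motifs, since the interferon-stimulated response element and the kB site are the known entry points of the pathways above. Among 27025 RefSeq mouse promoters of 250 bases before the gene start (GRCm38.p6), 3.04% held the core of the response element, searched as GAAA, any 2 bases and GAAA, and 0.337% held a kB site, searched as GGGA, any base and TTTCC, each on either strand. Only 78.6% of the genes tested could be matched to a promoter, too few to compare genes called higher or lower, so the motifs are a description of single genes. The stretches below end at the base before the start and hold such a motif in 5 of the interferon-linked genes above, the acute phase gene Saa3 and 2 neutrophil chemokines, the first 6 with the response element core or its reverse complement in capitals and the last 2 with the kB site in capitals. The genes shown were chosen after this search, so that each holds a motif by choice. How many other named genes hold or lack one is not given. Isg15 shows 3 overlapping copies and Bst2 2, while a copy on the opposite strand is shown for Rsad2. Positions on NCBIM37 were chr4:155574928-155575037 for Isg15, chr12:27141318-27141467 for Rsad2, chr5:121227669-121227778 for Oas3, chr8:74061372-74061521 for Bst2, chr5:92777916-92778140 for Cxcl10 and chr7:53971047-53971196 for Saa3, all on the minus strand, and chr5:91320171-91320270 for Cxcl1 and chr5:91215027-91215126 for Cxcl3 on the plus strand.
Isg15: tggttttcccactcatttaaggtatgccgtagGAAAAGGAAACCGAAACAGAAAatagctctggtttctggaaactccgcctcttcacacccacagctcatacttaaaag
Rsad2: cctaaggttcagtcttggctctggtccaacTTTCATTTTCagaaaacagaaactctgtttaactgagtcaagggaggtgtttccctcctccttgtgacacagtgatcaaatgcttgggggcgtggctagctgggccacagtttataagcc
Oas3: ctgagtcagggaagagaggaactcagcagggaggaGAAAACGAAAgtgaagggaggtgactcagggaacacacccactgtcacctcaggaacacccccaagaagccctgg
Bst2: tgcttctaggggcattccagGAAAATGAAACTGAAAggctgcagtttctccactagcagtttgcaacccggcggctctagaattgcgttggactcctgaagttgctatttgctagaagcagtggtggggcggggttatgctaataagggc
Cxcl10: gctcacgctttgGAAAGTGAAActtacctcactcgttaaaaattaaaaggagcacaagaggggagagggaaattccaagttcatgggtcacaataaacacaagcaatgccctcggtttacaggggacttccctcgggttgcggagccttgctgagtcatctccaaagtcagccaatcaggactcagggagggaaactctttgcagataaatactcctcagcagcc
Saa3: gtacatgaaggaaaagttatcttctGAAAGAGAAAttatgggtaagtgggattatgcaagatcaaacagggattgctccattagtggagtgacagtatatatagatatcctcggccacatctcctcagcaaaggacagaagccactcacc
Cxcl1: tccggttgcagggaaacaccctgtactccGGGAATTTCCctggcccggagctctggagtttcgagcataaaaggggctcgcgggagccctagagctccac
Cxcl3: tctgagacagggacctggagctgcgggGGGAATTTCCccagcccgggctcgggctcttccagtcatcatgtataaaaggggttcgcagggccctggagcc
The motif letters were the same in Cxcl1 and Cxcl3, whose rises were 3.18 ± 0.49 and 5.52 ± 0.69.

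Antigen presentation moved mainly on the class I side. All 18 tested class I genes (19 listed) were called higher, with a median of 1.72, against 5 of 12 class II genes. H2-T23, a nonclassical class I molecule, stood at 67.9, 70.8 and 41.5 CPM with PBS and 332, 382, 227 and 203 CPM with D.f. extract and rose by 2.37 ± 0.10 (adjusted p = 2.27e-05). The immunoproteasome subunits Psmb8 and Psmb9, which cut peptides for class I molecules, rose by 2.39 ± 0.14 and 2.00 ± 0.12, and Tapbp, which loads them, by 1.81 ± 0.10. Of 24 subunits of the constitutive proteasome, 2 were called higher, Psma5 and Psma4, with a list median of 0.32. That count was 4 without PBS 2 of the RNase III set, 0 without D.f. library 3 of the RNase III set, D.f. library 4 of the RNase III set or D.f. library 3 of the knockout set and 1 without the knockout-set PBS library. On the class II side, Ctss, the protease that trims the invariant chain, rose by 1.23 ± 0.10 and Ciita, the class II transactivator, by 0.93 ± 0.13. The class II count was 2 without D.f. library 3 of the RNase III set, the knockout-set PBS library or D.f. library 3 of the knockout set and 3 without D.f. library 4 of the knockout set. Reads of class I genes with near-identical copies may be shared between them.

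Genes of the inflammasome and the interleukin 1 family, taken as 1 list, were called higher in 16 of 21 tested (22 listed), with a median of 1.27, led by a decoy receptor and an antagonist. Il1rn, the receptor antagonist, stood at 8.71, 7.46 and 4.95 CPM with PBS and 119, 109, 79.3 and 54.8 CPM with D.f. extract and rose by 3.80 ± 0.16 (adjusted p = 2.27e-05). Il1r2, the decoy receptor, stood at 0.355, 0.537 and 0.346 CPM with PBS and 8.95, 5.21, 5.48 and 3.34 CPM with D.f. extract and rose by 3.86 ± 0.36 (adjusted p = 0.000455). Il18bp, which binds and blocks interleukin 18, rose by 2.98 ± 0.13. The cytokine Il1b stood at 6.52, 7.902 and 5.18 CPM with PBS and 110.3, 50.6, 37.45 and 24.9 CPM with D.f. extract and rose by 3.15 ± 0.35 (adjusted p = 0.000897), in the same libraries as its antagonists. Of 20 NF-kB genes 16 were called higher, with the smaller median of 0.90. Nfkbie, an inhibitor of NF-kB made on its activation, stood at 14.6, 16.7 and 8.47 CPM with PBS and 61.5, 55.3, 37.3 and 30.9 CPM with D.f. extract and rose by 1.94 ± 0.12 (adjusted p = 7.14e-05). Birc3 rose by 1.10 ± 0.11, and the subunits Relb and Rel by 1.02 ± 0.13 and 0.87 ± 0.11. The NF-kB count was 10 without D.f. library 3 of the knockout set, and within the knockout set alone it was 2.

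Secreted defence proteins followed, with 17 of 23 tested genes (24 listed) called higher and a median of 2.07. Saa3 (chromosome 7, 53967368 to 53971046, minus strand), the serum amyloid A form made in lung, stood at 14.7, 7.999 and 1.56 CPM with PBS and 869.7, 745, 464 and 388 CPM with D.f. extract. It rose by 6.69 ± 0.45 (adjusted p = 0.000104), with all D.f. libraries above all PBS libraries. Its neighbour Saa1 stood at 0.474, 0.341 and 0.346 CPM with PBS and 12.1, 12.3, 15.8 and 14.9 CPM with D.f. extract and rose by 5.09 ± 0.21. Serpina3n, a protease inhibitor, rose by 1.86 ± 0.14. The count of acute phase genes was 11 without D.f. library 3 of the RNase III set. Of 18 tested complement genes (19 listed) 7 were called higher. Cfb, the factor B of the alternative pathway, stood at 0.237, 0.683 and 30.1 CPM with PBS and 3.22, 3.58, 545 and 431 CPM with D.f. extract and rose by 3.70 ± 0.32 (adjusted p = 0.00028). Across sets the groups overlapped, since the knockout-set PBS library was above both D.f. libraries of the RNase III set, while within the sets the change was 2.81 ± 0.36 and 4.02 ± 0.31. C2 rose by 1.88 ± 0.23, C1ra by 1.17 ± 0.12 and C1s by 0.73 ± 0.10. The complement count was 11 without PBS 2 of the RNase III set.

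Enzymes of immune metabolism included Irg1, among the largest rises of all. Irg1 (Acod1; chromosome 14, 103446194 to 103455790, plus strand), which makes itaconate in activated macrophages, stood at 0.237, 0.585 and 0.0576 CPM with PBS and 101, 80.5, 66.1 and 42.99 CPM with D.f. extract. It rose by 8.01 ± 0.36 (adjusted p = 2.35e-05), from 17 reads over the 3 PBS libraries. Ido1, which breaks down tryptophan, stood at 0.592, 0.634 and 0.173 CPM with PBS and 4.41, 8.75, 4.73 and 3.76 CPM with D.f. extract and rose by 3.68 ± 0.39 (adjusted p = 0.000718). Ass1, which resupplies arginine, rose by 1.85 ± 0.18 and Nampt, of NAD synthesis, by 1.73 ± 0.14. In that list of 21 tested genes 13 were called higher and 1 lower, the first count being 8 without D.f. library 3 of the RNase III set and the second 0 without PBS 2 of the RNase III set, D.f. library 4 of the RNase III set or D.f. library 4 of the knockout set. Checkpoint and costimulation genes were called higher in 13 of 15 tested (16 listed), with a median of 1.65. Cd274 (PD-L1), a ligand that restrains T cells, stood at 31.4, 26.5 and 22.5 CPM with PBS and 240.2, 325, 209 and 145 CPM with D.f. extract and rose by 3.16 ± 0.19 (adjusted p = 7.14e-05). Lag3, an inhibitory receptor of activated T and NK cells, stood at 1.18, 1.41 and 1.09 CPM with PBS and 8.61, 8.61, 7.37 and 6.55 CPM with D.f. extract and rose by 2.70 ± 0.18 (adjusted p = 0.000104). Cd69, an early activation marker, rose by 2.66 ± 0.22 and Cd80, a costimulatory ligand, by 2.14 ± 0.21.

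Genes linked to type 2 immunity, the arm of the immune system that drives allergic asthma, moved in both directions. Of 25 listed 19 were tested, with 4 called higher and 2 lower. Arg1, an arginase of alternatively activated macrophages, stood at 1.72, 1.902 and 1.09 CPM with PBS and 10.5, 7.54, 5.88 and 1.94 CPM with D.f. extract and rose by 2.16 ± 0.39 (adjusted p = 0.00995). Ccl11 (eotaxin), which draws eosinophils, stood at 2.78, 3.66 and 2.995 CPM with PBS and 9.29, 7.17, 9.41 and 5.46 CPM with D.f. extract and rose by 1.33 ± 0.24 (adjusted p = 0.0101; 0.0506 without D.f. library 3 of the RNase III set). Il13ra1 rose by 0.86 ± 0.11. Il1rl1, the receptor of the alarmin interleukin 33, stood at 7.11, 6.63 and 6.797 CPM with PBS and 3.31, 2.65, 3.24 and 2.49 CPM with D.f. extract and fell by 1.22 ± 0.18 on the log2 scale (adjusted p = 0.00374). Its 4 D.f. values lay below its 3 PBS values in both sets. Il33 itself was not called (0.70 ± 0.26, adjusted p = 0.108), and neither was the goblet cell mucin Muc5ac (1.12 ± 0.55, adjusted p = 0.215). The cytokine Il13 had 1, 4 and 0 reads with PBS and 2, 2, 0 and 0 reads with D.f. extract, and Il4 had at most 3 reads in any library, so that neither was tested. The count called higher was 7 without PBS 2 of the RNase III set and 2 without D.f. library 3 of the RNase III set, and the count called lower was 1 without D.f. library 3 of the RNase III set, D.f. library 3 of the knockout set or D.f. library 4 of the knockout set.

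**Figure D3:**
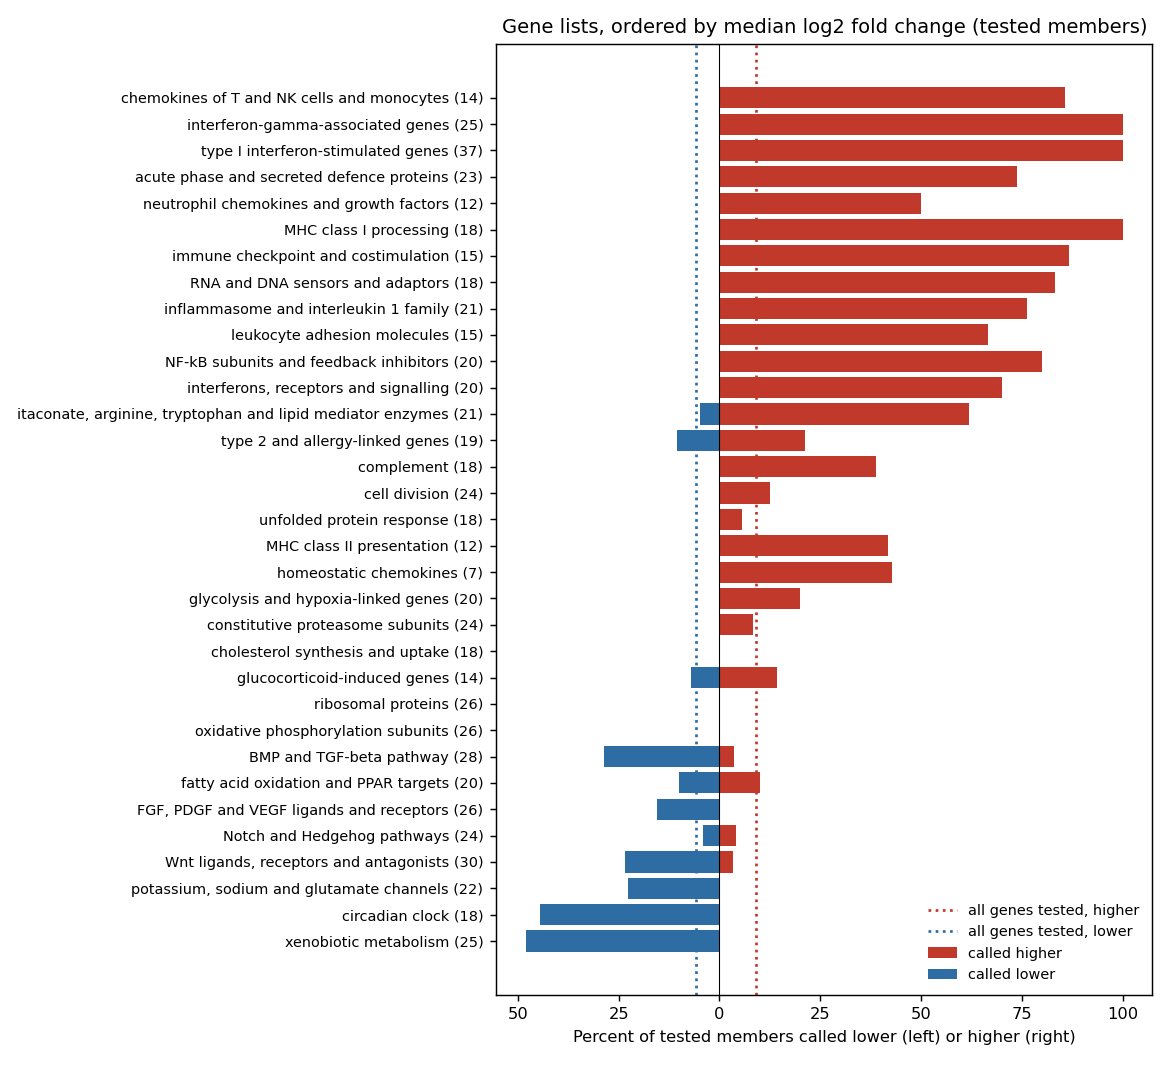
Percent of the tested members of 33 gene lists called higher (red, right) or lower (blue, left) with D.f. extract, ordered by the median log2 fold change, with the number tested in brackets; dotted lines mark the 9.18% and 5.89% of all genes tested. Interferon, chemokine and class I lists lie at the top and xenobiotic metabolism and clock genes at the bottom.

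Marker genes of blood-borne leukocytes were higher in the same libraries as the chemokines. Of 21 listed genes of monocytes and interstitial macrophages 20 were tested, and 11 were called higher and 2 lower, while their summed level, which overlapped between groups, was 723 to 1350.0 CPM with PBS and 1042 to 1684 CPM with D.f. extract. Ly6c2, the surface marker of inflammatory monocytes, stood at 2.84, 2.54 and 1.901 CPM with PBS and 63.6, 73.9, 34.2 and 27.8 CPM with D.f. extract and rose by 4.46 ± 0.18 (adjusted p = 2.27e-05). Plac8 stood at 28.9, 27.1 and 12.1 CPM with PBS and 245, 253, 121 and 89.1 CPM with D.f. extract and rose by 3.14 ± 0.13 (adjusted p = 2.27e-05). Ms4a4c and Ms4a6c, membrane proteins of monocytes, rose by 3.99 ± 0.20 and 2.68 ± 0.15, and Ly6i by 6.15 ± 0.40. The rise of these genes was shared by both sets, for Ly6c2 4.68 ± 0.19 within the RNase III set and 4.02 ± 0.26 within the knockout set. The count of falls was 1 without PBS 2 of the RNase III set, D.f. library 3 of the knockout set or D.f. library 4 of the knockout set and 0 without D.f. library 3 of the RNase III set. The part of cell number in these rises was not tested.

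NK cell and cytotoxic granule genes were called higher in 15 of 17 tested (18 listed), with a median of 1.63 and a summed level of 32.1 to 78.3 CPM with PBS and 130.1 to 241 CPM with D.f. extract. Gzmb, a granule protease, stood at 3.02, 2.05 and 0.864 CPM with PBS and 19.3, 18.5, 11.9 and 8.91 CPM with D.f. extract and rose by 3.10 ± 0.23 (adjusted p = 0.000168). Eomes, a factor of NK and memory T cells, stood at 1.66, 1.66 and 0.922 CPM with PBS and 6.45, 7.63, 3.49 and 4.61 CPM with D.f. extract and rose by 2.10 ± 0.21 (adjusted p = 0.000572). Il2rb, a subunit of the interleukin 15 receptor, rose by 1.79 ± 0.13. The NK cell count was 10 without D.f. library 3 of the RNase III set and 5 without the set term. Of the 17 tested, 8 were higher in every D.f. library than in every PBS library. The list median was 1.57 within the RNase III set and 1.60 within the knockout set. Of 18 T cell genes 12 were called higher, with a median of 0.82 and a summed level of 85.85 to 177 CPM with PBS and 142 to 242 CPM with D.f. extract, so that the sums overlapped. Lck, the kinase of the T cell receptor, stood at 12.7, 9.02 and 5.36 CPM with PBS and 22.4, 24.4, 13.6 and 12.9 CPM with D.f. extract and rose by 1.18 ± 0.15 (adjusted p = 0.001925). Cd8a rose by 1.38 ± 0.24 and Cd3g by 1.17 ± 0.19. The T cell count was 7 without D.f. library 3 of the RNase III set or D.f. library 3 of the knockout set and 5 without D.f. library 4 of the RNase III set or the knockout-set PBS library, and it was 5 within the RNase III set alone and 0 within the knockout set alone. Without the set term it was also 0.

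Of 18 listed neutrophil genes 12 were tested, and 5 were called higher and none lower. The summed level of the 17 counted in both sets was 105 to 301 CPM with PBS and 157.5 to 530.2 CPM with D.f. extract. PBS 2 of the RNase III set was inside the range of the D.f. libraries. Cxcr2, the receptor of Cxcl1 and its relatives, stood at 3.61, 5.9995 and 2.304 CPM with PBS and 24.8, 13.8, 18.4 and 11.5 CPM with D.f. extract and rose by 2.24 ± 0.33 (adjusted p = 0.00363). Clec4d rose by 2.42 ± 0.25 and Csf3r, the receptor of the neutrophil growth factor, by 1.58 ± 0.17. Of the granule genes left untested, Elane had at most 1 read in any library, Mpo 3, Camp 4 and Ngp 22. Dendritic cell genes split, with 4 of 15 called higher and 3 lower. Ccr7, which guides mature dendritic cells to lymph nodes, stood at 11.1, 8.19 and 5.41 CPM with PBS and 23.4, 19.1, 23.6 and 20.01 CPM with D.f. extract and rose by 1.46 ± 0.22 (adjusted p = 0.00415), and Fscn1, of their cytoskeleton, rose by 1.58 ± 0.19. Cd209a, a lectin of dendritic cells derived from monocytes, stood at 3.44, 6.05 and 4.44 CPM with PBS and 1.53, 1.21, 1.096 and 0.788 CPM with D.f. extract and fell by 1.96 ± 0.28 on the log2 scale (adjusted p = 0.00321). Its 4 D.f. values lay below all PBS values. Of 16 tested B cell genes 2 were called higher, among them Fcer2a (CD23), the low-affinity receptor of immunoglobulin E, which rose by 1.27 ± 0.14 (adjusted p = 0.000802). The B cell count was 1 without PBS 2 of the RNase III set, D.f. library 3 of the RNase III set, D.f. library 4 of the RNase III set, the knockout-set PBS library, D.f. library 3 of the knockout set or D.f. library 4 of the knockout set. Of 17 listed genes of mast cells, basophils and eosinophils 4 passed the filter and none was called by edgeR or DESeq2 or had an unadjusted p under 0.05, and the eosinophil peroxidase Epx had 0 reads in every library.

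Adhesion molecules that leukocytes use to leave the blood were called higher in 10 of 15 tested genes (16 listed). Selp (P-selectin), shown by activated endothelium and platelets, stood at 3.495, 7.46 and 4.72 CPM with PBS and 34.95, 20.9, 21.3 and 10.9 CPM with D.f. extract and rose by 2.12 ± 0.36 (adjusted p = 0.00733). It was the only platelet marker called among 12. Vcam1, the endothelial ligand of leukocyte integrins, stood at 101, 94.9 and 75.9 CPM with PBS and 207, 161, 226 and 173 CPM with D.f. extract and rose by 1.10 ± 0.16 (adjusted p = 0.00349). On the leukocyte side, the integrin subunits Itgam and Itgal rose by 1.64 ± 0.15 and 1.08 ± 0.09. Pecam1, present on all endothelium, gave -0.01 ± 0.14 in the same libraries.

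**Figure D4:**
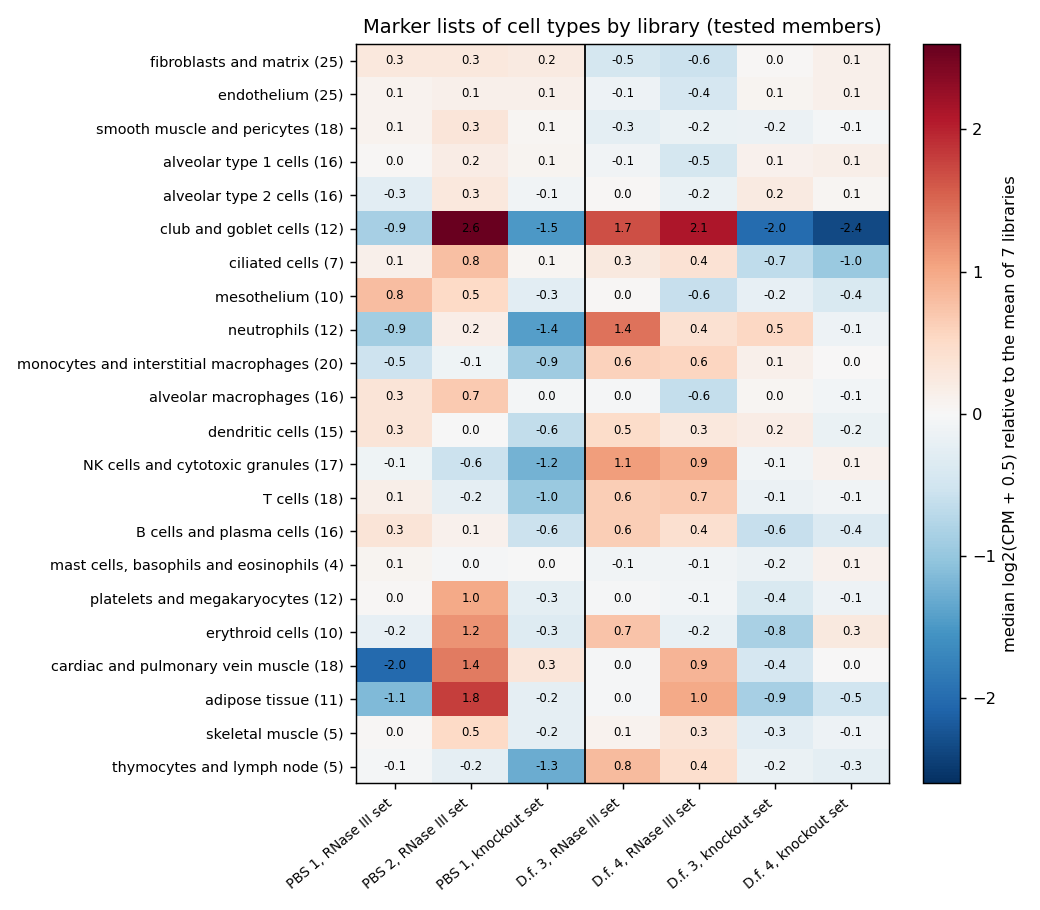
Median log2(CPM + 0.5) of 22 cell type marker lists in each of the 7 libraries relative to the mean of the 7, PBS at the left and D.f. extract at the right of the line, with the number of tested genes in brackets; red is above and blue below the mean. The NK cell row is higher in each D.f. library than in the PBS libraries of its set, while club cell, cardiac and adipose rows differ between libraries within a treatment.

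Among genes that fell, the largest changes included receptors of macrophages. Fabp1 (chromosome 6, 71149821 to 71155017, plus strand), a fatty acid binding protein best known from liver, stood at 3.44, 4.73 and 4.38 CPM with PBS and 0.2545, 0.186, 0.448 and 0.546 CPM with D.f. extract. The groups were far apart, and the fall was 3.68 ± 0.32 on the log2 scale (adjusted p = 0.000306). Cd163, the haemoglobin scavenger receptor of macrophages, stood at 6.46, 12.5 and 8.99 CPM with PBS and 1.31, 3.03, 2.64 and 2.55 CPM with D.f. extract and fell by 2.00 ± 0.33 on the log2 scale (adjusted p = 0.00664). Fcrls, a macrophage receptor, stood at 3.495, 9.41 and 4.03 CPM with PBS and 1.3997, 0.838, 1.44 and 0.849 CPM with D.f. extract and fell by 2.24 ± 0.42 (adjusted p = 0.0112; 0.05005 without D.f. library 3 of the RNase III set and 0.0502 without D.f. library 4 of the RNase III set). Mrc1, the mannose receptor, fell by 1.11 ± 0.21 (adjusted p = 0.0115; 0.05005 without D.f. library 3 of the RNase III set). Over 16 tested alveolar macrophage genes (18 listed) 5 were called lower and 1 higher. The median was -0.53, with -0.80 within the RNase III set and -0.10 within the knockout set. Their summed level was 803 to 1414 CPM with PBS and 515 to 839.7 CPM with D.f. extract, so that the sums overlapped. In the knockout set it was 803 CPM with PBS and 725.5 and 712.6 CPM with D.f. extract. Whether the sets differed was not tested for the list. The count of falls was 3 without PBS 2 of the RNase III set and 2 without D.f. library 3 of the RNase III set or D.f. library 3 of the knockout set. The count of rises was 2 without PBS 1 of the RNase III set or D.f. library 4 of the RNase III set and 0 without D.f. library 3 of the RNase III set or the knockout-set PBS library.

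The other large falls named genes of several kinds. In each the groups did not overlap and both sets fell, which the choice of these genes required. Colq (chromosome 14, 32336268 to 32404529, minus strand), the collagen tail of acetylcholinesterase, stood at 36.3, 25.6 and 60.9 CPM with PBS and 5.05, 4.14, 14.8 and 18.7 CPM with D.f. extract and fell by 2.37 ± 0.23 on the log2 scale (adjusted p = 0.000464). Cpne5, a copine, stood at 9.24, 9.95 and 5.07 CPM with PBS and 1.06, 1.35, 0.548 and 0.9702 CPM with D.f. extract and fell by 2.90 ± 0.23 (adjusted p = 0.000203). Both falls were present in both sets, for Cpne5 -2.99 ± 0.31 and -2.75 ± 0.38, the RNase III set given first. Hepacam2 fell by 2.32 ± 0.22, Sept3, a septin, by 2.80 ± 0.35, Gsg1l by 2.58 ± 0.41 and Zmat4 by 2.05 ± 0.24. Gdf10, a ligand of the BMP family, fell by 2.00 ± 0.44 (adjusted p = 0.0204; 0.0666 without D.f. library 3 of the RNase III set and 0.0923 without D.f. library 4 of the RNase III set). Gria1, a glutamate receptor subunit, stood at 56.5, 34.8 and 55.4 CPM with PBS and 4.07, 5.82, 28.4 and 31.35 CPM with D.f. extract and fell by 2.30 ± 0.48 (adjusted p = 0.0176; 0.0754 without D.f. library 3 of the RNase III set and 0.0909 without D.f. library 4 of the RNase III set). Its fall was -3.21 ± 0.28 in RNase III set libraries and -0.89 ± 0.30 in those of the knockout set, with an unadjusted p of 0.000901 for the difference.

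Among abundant genes, those whose average log2 CPM reached 6 or more, the 8 named falls were between 1.46 and 1.94 on the log2 scale. Inmt, a methyltransferase made by lung fibroblasts, stood at 885, 561 and 849 CPM with PBS and 146, 104, 373 and 512 CPM with D.f. extract and fell by 1.94 ± 0.36 (adjusted p = 0.0113; 0.0681 without D.f. library 3 of the RNase III set). Scube2, a secreted Hedgehog carrier, fell by 1.82 ± 0.32 (adjusted p = 0.00898; 0.0565 without D.f. library 3 of the RNase III set). Scn3a, a sodium channel subunit, stood at 107, 85.1 and 147 CPM with PBS and 28.04, 23.6, 45.5 and 71.4 CPM with D.f. extract and fell by 1.67 ± 0.20 (adjusted p = 0.00124). Pcolce2, which aids procollagen cleavage, stood at 256, 179 and 236 CPM with PBS and 61.04, 44.3, 107 and 147 CPM with D.f. extract and fell by 1.60 ± 0.28 (adjusted p = 0.00798). Igfbp6, a binding protein of insulin-like growth factor, fell by 1.47 ± 0.25, the transporter Abca8a by 1.46 ± 0.21, Mamdc2 by 1.46 ± 0.23 and Mettl7a1 by 1.48 ± 0.23. In the list of fibroblasts and matrix 9 of 25 genes were called lower, with a median of -0.69 that was -0.85 within the RNase III set and -0.22 within the knockout set. Its summed level was 10310.0 and 7950.0 CPM in the PBS libraries of the RNase III set and 10440.0 CPM in that of the knockout set. The sum was 5500.0 and 6158 CPM in the D.f. libraries of the RNase III set and 10170.0 and 10970.0 CPM in those of the knockout set. The count was 0 without D.f. library 3 of the RNase III set, 3 without D.f. library 4 of the RNase III set and 14 without the knockout-set PBS library. In summed level the D.f. libraries were thus below PBS in the RNase III set and not in the knockout set, and whether the sets differed was not tested for the list. Col1a1, the main fibrillar collagen, gave 0.01 ± 0.18 and 0.31 ± 0.22 in the sets and was not called.

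Signalling genes of the lung mesenchyme were lower in part, and more so within the RNase III set. Median changes in the RNase III and knockout sets were -0.42 and -0.15 for Wnt genes and -0.37 and 0.05 for BMP and TGF-beta genes. They were -0.47 and -0.10 for FGF, PDGF and VEGF genes and -0.39 and 0.10 for Notch and Hedgehog genes. Whether the sets differed was not tested for these lists. Wnt ligands and their modulators maintain the alveolar niche, and 7 of 30 were called lower and 1 higher. Sfrp1, a secreted Wnt antagonist, was the exception: it stood at 19.02, 24.1 and 20.1 CPM with PBS and 83.4, 86.3, 88.05 and 67.55 CPM with D.f. extract and rose by 1.97 ± 0.13 (adjusted p = 0.000106), by 1.97 ± 0.18 and 1.95 ± 0.23 in the sets. Wnt2, a ligand of lung mesenchyme, stood at 33.9, 26.5 and 24.2 CPM with PBS and 7.55, 5.59, 13.1 and 14.6 CPM with D.f. extract and fell by 1.65 ± 0.29 (adjusted p = 0.00881; 0.0548 without D.f. library 3 of the RNase III set). Rspo1, which enhances Wnt signals, fell by 0.97 ± 0.18 and the receptor Fzd1 by 0.52 ± 0.09. The Wnt count of falls was 2 without D.f. library 3 of the RNase III set, 3 without D.f. library 4 of the RNase III set and 4 without D.f. library 3 of the knockout set. In the BMP and TGF-beta list 8 of 28 tested genes (29 listed) were called lower, and 1, Tgfb1, higher. Smad9, a transducer of BMP signals, stood at 25.1, 19.4 and 24.8 CPM with PBS and 6.62, 7.91, 13.5 and 16.01 CPM with D.f. extract and fell by 1.27 ± 0.21 (adjusted p = 0.00636). Tgfb1, the ligand itself, stood at 70.7, 78.3 and 71.1 CPM with PBS and 117, 107, 102 and 107 CPM with D.f. extract and rose by 0.57 ± 0.08 (adjusted p = 0.00357). The BMP count of falls was 3 without D.f. library 3 of the RNase III set, D.f. library 4 of the RNase III set or D.f. library 3 of the knockout set, 5 without the knockout-set PBS library and 4 without D.f. library 4 of the knockout set. In the list of FGF, PDGF and VEGF genes 4 of 26 were called lower, and that count was 0 without D.f. library 3 of the RNase III set, 7 without the knockout-set PBS library and 2 without D.f. library 3 of the knockout set. Of 24 tested Notch and Hedgehog genes 1 was called higher, the Notch ligand Dll1 (0.84 ± 0.13), and 1 lower, a count that was 0 without D.f. library 3 of the RNase III set, D.f. library 4 of the RNase III set, D.f. library 3 of the knockout set or D.f. library 4 of the knockout set and 6 without the knockout-set PBS library.

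Enzymes that handle foreign compounds were called lower in 12 of 25 genes and higher in none, with a median of -0.65. That median was -0.87 within the RNase III set and -0.38 within the knockout set, and whether the sets differed was not tested for the list. Without the set term 2 were called lower. Aox3, an aldehyde oxidase, stood at 199, 188 and 70.1 CPM with PBS and 67.7, 68.8, 26.99 and 31.8 CPM with D.f. extract and fell by 1.41 ± 0.10 (adjusted p = 0.000122). Levels were lower in the knockout set with either treatment, and the fall was -1.50 ± 0.12 and -1.26 ± 0.15 in the sets. Fmo5, a flavin monooxygenase, stood at 35.5, 34.4 and 36.5 CPM with PBS and 16.4, 12.4, 14.99 and 19.2 CPM with D.f. extract and fell by 1.21 ± 0.14 (adjusted p = 0.00105), and Gstm1, a glutathione transferase, fell by 1.11 ± 0.18. The count was 5 without D.f. library 3 of the RNase III set. Ion channels were called lower in 5 of 22 tested genes, among them the potassium channels Kcnk2 (-1.02) and Kcnn3 (-1.09), and that count was 3 without D.f. library 3 of the RNase III set or D.f. library 4 of the RNase III set.

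Clock genes were called lower in 8 of 18 tested (19 listed), with a median of -0.33. That median was -0.44 within the RNase III set and -0.13 within the knockout set, and whether the sets differed was not tested for the list. Without the set term 1 was called lower. Nr1d1 (Rev-erb alpha), a repressor in the clock's second loop, stood at 18.3, 35.4 and 72.7 CPM with PBS and 4.07, 3.35, 19.97 and 22.7 CPM with D.f. extract. It fell by 2.39 ± 0.30 on the log2 scale (adjusted p = 0.00164), and PBS exceeded D.f. within each set, although across sets both D.f. libraries of the knockout set were above PBS 1 of the RNase III set. Its relative Nr1d2 stood at 19.6, 29.6 and 51.03 CPM with PBS and 10.99, 11.6, 27.8 and 25.04 CPM with D.f. extract and fell by 1.05 ± 0.15 (adjusted p = 0.00314). Both were called in each fit that left 1 library out. Called higher was none by edgeR and 1 by DESeq2. The count of clock genes called lower was 5 without PBS 2 of the RNase III set or D.f. library 4 of the knockout set, 2 without D.f. library 3 of the RNase III set or D.f. library 4 of the RNase III set and 3 without D.f. library 3 of the knockout set. The labels give no time of day, and a collection window of 14 to 16 h was shared by PBS and D.f. samples, so the part of sampling time in these falls was not tested.

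Genes of the structural cells of the lung were called in small numbers that moved with single libraries. Of 25 tested endothelial genes 2 were called lower, a count that was 0 without D.f. library 3 of the RNase III set or D.f. library 3 of the knockout set, 1 without D.f. library 4 of the RNase III set and 5 without the knockout-set PBS library. Of 16 type 1 cell genes 1 was called higher and 1 lower, where the count called higher was 0 without PBS 1 of the RNase III set, D.f. library 3 of the RNase III set, the knockout-set PBS library, D.f. library 3 of the knockout set or D.f. library 4 of the knockout set, and the count called lower was 0 without PBS 1 of the RNase III set, PBS 2 of the RNase III set, D.f. library 3 of the RNase III set, D.f. library 4 of the RNase III set, D.f. library 3 of the knockout set or D.f. library 4 of the knockout set. Of 16 type 2 cell genes 3 were called higher and 1 lower, and the count called higher was 1 without PBS 1 of the RNase III set, D.f. library 3 of the knockout set or D.f. library 4 of the knockout set and 0 without D.f. library 3 of the RNase III set or the knockout-set PBS library. Hc (complement component 5), listed here among type 2 cell genes, stood at 662, 833 and 739.6 CPM with PBS and 476, 468, 409.9 and 455 CPM with D.f. extract and fell by 0.71 ± 0.11 (adjusted p = 0.005698). In smooth muscle and pericytes 3 of 18 were called lower, a count that was 1 without D.f. library 3 of the RNase III set, D.f. library 4 of the RNase III set or D.f. library 3 of the knockout set. These were led by Abcc9, a subunit of potassium channels in pericytes, which stood at 22.8, 34.6 and 32.9 CPM with PBS and 8.53, 11.3, 12.4 and 12.9 CPM with D.f. extract and fell by 1.47 ± 0.17 (adjusted p = 0.00113). In mesothelium, the cell layer on the lung surface, 4 of 10 tested genes were called lower. Upk1b, a uroplakin, stood at 30.9, 27.02 and 37.9 CPM with PBS and 12.3, 10.2, 18.4 and 23.5 CPM with D.f. extract and fell by 1.16 ± 0.16 (adjusted p = 0.00235). The mesothelial count was 2 without D.f. library 3 of the RNase III set. Of the 12 club and goblet cell genes 2 were called lower, a count that was 0 without D.f. library 3 of the RNase III set and 1 without D.f. library 4 of the RNase III set, D.f. library 3 of the knockout set or D.f. library 4 of the knockout set. Scgb1a1, the club cell secretory protein, stood at 20803, 26181 and 1046 CPM with PBS and 15688, 12652, 1733 and 1074 CPM with D.f. extract, which split by set and not by treatment (-0.29 ± 0.31, adjusted p = 0.564). Myh7, a myosin of heart muscle, fell by 1.89 ± 0.32 (adjusted p = 0.006697) as the 1 cardiac gene of 18 called, against 3 without PBS 1 of the RNase III set. Summed cardiac levels varied within treatments as given above, and their part in this fall was not tested.

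Of genes of basic cell functions, some lists gave no call and others a few. By edgeR none of 26 subunits of oxidative phosphorylation was called, with a median of 0.03, none at an unadjusted p under 0.05 and none by DESeq2, and 1 was called lower without PBS 1 of the RNase III set. Of 26 ribosomal proteins edgeR called none, with 2 at an unadjusted p under 0.05 and 1 called higher by DESeq2, and edgeR called 2 higher without the knockout-set PBS library. Of 18 tested genes of cholesterol synthesis and uptake neither tool called any, with 2 at an unadjusted p under 0.05, while edgeR called 5 higher without PBS 2 of the RNase III set. Of 18 genes of the unfolded protein response 1 was called higher, Edem1 (0.49 ± 0.09), and 2 without the knockout-set PBS library. Of 20 genes of glycolysis and hypoxia 4 were called higher, led by Hk3, a hexokinase of myeloid cells, which stood at 6.22, 7.27 and 3.05 CPM with PBS and 35.3, 47.7, 21.96 and 19.04 CPM with D.f. extract and rose by 2.66 ± 0.16 (adjusted p = 7.14e-05). The glycolysis count was 7 without PBS 2 of the RNase III set. Of 24 cell division genes 3 were called higher, all of the replicative helicase: Mcm6 (1.00 ± 0.13), Mcm5 (0.97 ± 0.21, adjusted p = 0.0191; 0.0517 without D.f. library 3 of the RNase III set) and Mcm2 (0.81 ± 0.16, adjusted p = 0.0151; 0.0573 without D.f. library 3 of the RNase III set). The median of this list was -0.02 within the RNase III set and 1.20 within the knockout set, and its count was 11 without PBS 1 of the RNase III set and 1 without D.f. library 3 of the RNase III set. Whether the sets differed for the list was not tested.

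Pooling the sets added 396 genes called higher and 329 called lower that neither set called alone. By the smallest p, at an average log2 CPM of 1 or more, these were led by Acp2, a lysosomal phosphatase, which stood at 60.4, 66.97 and 62.04 CPM with PBS and 83.5, 89.4, 93.2 and 87.98 CPM with D.f. extract and rose by 0.48 ± 0.09 (adjusted p = 0.008902; 0.0591 without the knockout-set PBS library). Aph1c, a subunit of gamma-secretase, stood at 7.58, 6.097 and 8.52 CPM with PBS and 3.73, 3.44, 3.69 and 4.73 CPM with D.f. extract and fell by 0.97 ± 0.17 (adjusted p = 0.009202). Capg, an actin-capping protein of macrophages, rose by 0.75 ± 0.14 (adjusted p = 0.00989; 0.05005 without D.f. library 3 of the RNase III set and 0.0579 without the knockout-set PBS library). Krt23, a keratin, fell by 1.06 ± 0.19 (adjusted p = 0.00898; 0.0602 without the knockout-set PBS library). Of the 10 leading genes of this group, 9 needed the knockout-set PBS library to be called. Genes called in both sets alone numbered 344 higher and 23 lower, and none was called in opposite directions.

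Calls depended on single libraries, and on the lower side more than on the higher side. With 1 library left out, between 854 and 1401 genes were called higher and between 242 and 1024 lower. The smallest count of falls came without D.f. library 3 of the RNase III set, where 870 genes were called higher and 242 lower. Without D.f. library 4 of that set the counts were 894 and 353, without D.f. library 3 of the knockout set 854 and 378, and without D.f. library 4 of the knockout set 1083 and 575. Leaving out 1 PBS library kept each count within 1.5 times the count of all 7 libraries. Of the 190 genes of the naming rule that were called, 129 were called in each of the 7 fits that left a library out, and all 190 kept their direction in each such fit that tested them. Ifng passed the filter in 4 of these fits and was called in those 4. Cxcl10, Irg1, Saa3, Isg15, Fabp1, Colq and Nr1d1 were among the 129.

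**Figure D5:**
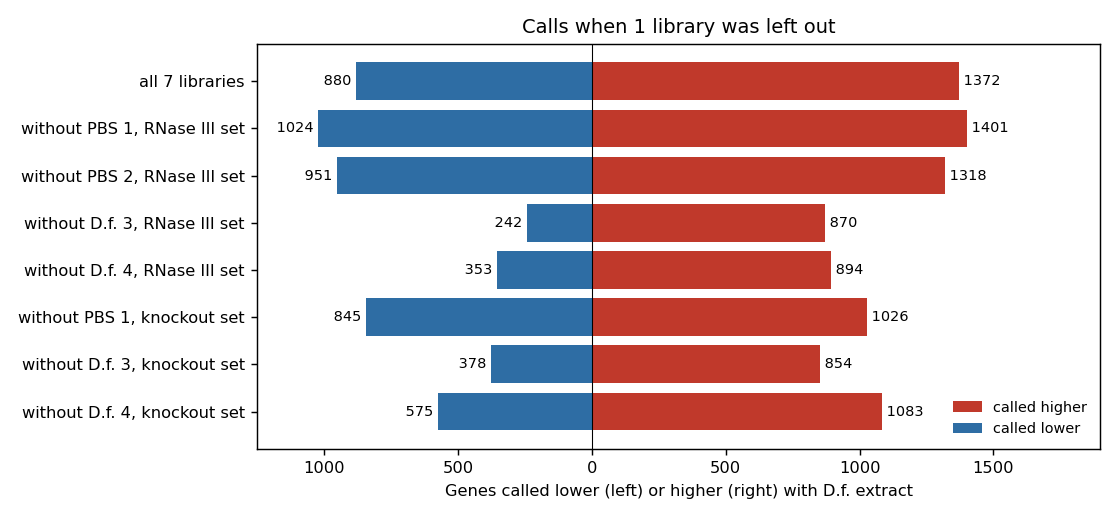
Number of genes called higher (red, right) and lower (blue, left) with D.f. extract in the fit of all 7 libraries (1372 and 880) and in each fit that left 1 library out. Bars for falls are shortest without D.f. library 3 of the RNase III set (242).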

How the data were processed

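Total RNA of whole lung was made into TruSeq libraries and read as 100-base single-end reads, per the series' design text and the labels' protocols. Reads were aligned to mm9 with TopHat 2.0.8b and counted per gene symbol with HTSeq, per the submitters' processing notes, and the deposited values are raw read counts that the authors did not normalize. The HTSeq version, annotation and strand setting were not given in the sources used here, so values of overlapping, antisense and near-identical genes are uncertain. In the deposited counts 23.1 to 28.2% of reads were assigned to a gene, 27.0 to 40.0% fell in no feature and 36.8 to 44.6% did not align uniquely, and these summary lines were left out.

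The 21627 symbols shared by both sets' tables (33924 and 22609 symbols) were joined, and 14953 passed edgeR's filterByExpr (minimum count 10, minimum total 15). TMM scaling and edgeR's quasi-likelihood test (edgeR 4.0.16, limma 3.58.1, R 4.3.3) were used with a term for set and a term for D.f. extract, leaving 4 residual degrees of freedom. Within-set changes came from a fit of the 4 group means with 3 residual degrees of freedom, in which the lone knockout-set PBS library was assumed to vary like the other groups. The set stands for all that differed between the file sets and is the only batch the labels give. Replicates differed beyond sampling noise (chi-square per degree of freedom 50.7, 30.5 and 9.78) and were counted separately. On simulated counts for the pooled comparison (3 draws, 14953 genes, 200 changed in each), the test called 70.8% of genes changed 2-fold, 93.1% of those changed 4-fold and 98.6% at 8-fold, and 7.04% of calls were unchanged genes.

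The members and gene lists were chosen with earlier results of these data known. Named genes were up to 12 rises and 12 falls with the largest change among called genes without overlap and with the same sign in both sets (mean log2 CPM at least 1), up to 8 of each at a mean log2 CPM of at least 6, up to 10 called only in the pooled fit, up to 4 per list by smallest p, and a set of fixed names, and some of these genes are not reported here. Tgtp1, Camp, Elane, Mpo, Ngp, Il4, Ifna2 and Epx lie outside that rule and were named after their values were seen. Alternatives were DESeq2's size factors, DESeq2 1.42.0, 2 other filters (none, or at least 1 CPM in 3 libraries), no set term, all 12 libraries, each set alone and each library left out. Gene coordinates are those of GENCODE release M1 on NCBIM37 (mm9), and promoter letters are RefSeq's of GRCm38.p6, each placed by its single exact match on NCBIM37.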

Additional observations from a re-analysis of the deposited data

Results flagged for a closer look

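In 1 of the 158 genes examined a single D.f. library stood apart from the other 3. Edem1, which sends misfolded proteins for degradation, had 149 CPM in D.f. library 4 of the knockout set, the lowest of the 4 D.f. libraries, against 164 to 166 CPM in the others. The gap to the nearest library was 0.893 of the range of the 4, above Dixon's 95% critical value. Chance gives such a gap in about 5% of groups of 4, a rate above the 1 in 158 found here.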

How the results depend on the processing

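Against 1372 genes called higher and 880 lower by edgeR, the counts were 605 and 147 without the set term and 352 and 26 in the knockout set alone. Leaving out 1 library gave 854 to 1401 higher and 242 to 1024 lower. DESeq2's size factors, DESeq2 itself, both other filters, all 12 libraries and the RNase III set alone kept each count within 1.5 times. The share of rises among calls was 60.9%, and 57.6% with DESeq2's size factors, 80.5% without the set term and 93.1% in the knockout set alone. The difference between sets, with 0 calls, gave 54 in DESeq2 and 0 to 126 with 1 library left out. The cause of these shifts was not tested, although the knockout set alone has fewer samples. No called gene changed direction to a call of the opposite sign in any of these fits. The median change of all genes was at most 0.0341 in size in any fit, reached without the knockout-set PBS library. It was -0.0124 in the main fit and -0.0259 with DESeq2's size factors. No paired analysis was possible because PBS and D.f. libraries share no replicate numbers within a set. Simulated 2-fold changes were recovered less often than 4-fold ones, so that small changes may be the least complete. Each simulated draw changed 200 genes, against 2252 called in the data, so its rates may not hold for these data. Genes under about 10 reads were not tested.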

Other observations

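Some lists with few calls held single genes that changed. Among 14 tested glucocorticoid-induced genes 2 were called higher and 1 lower, and all 3 calls were lost without D.f. library 3 or without D.f. library 4 of the RNase III set. Mt2, a metallothionein that binds zinc, stood at 9.18, 24.5 and 18.1 CPM with PBS and 99.5, 72.6, 84.7 and 31.6 CPM with D.f. extract and rose by 2.08 ± 0.43 (adjusted p = 0.0176; 0.0676 without D.f. library 3 of the RNase III set, 0.0533 without D.f. library 4 of the RNase III set and 0.0539 without D.f. library 3 of the knockout set). Klf9, a transcription factor, fell by 0.67 ± 0.16 (adjusted p = 0.0253; 0.109 without D.f. library 3 of the RNase III set, 0.0955 without D.f. library 4 of the RNase III set and 0.0558 without D.f. library 4 of the knockout set). Among 20 genes of fatty acid oxidation and PPAR targets 2 were called higher and 2 lower, and all 4 calls were lost without D.f. library 3 of the RNase III set. The count called higher was 1 without PBS 1 of the RNase III set or PBS 2 of the RNase III set and 0 without D.f. library 3 of the RNase III set, D.f. library 4 of the RNase III set or D.f. library 3 of the knockout set, and the count called lower was 0 without D.f. library 3 of the RNase III set and 1 without D.f. library 3 of the knockout set. Ucp3, a mitochondrial carrier, stood at 2.96, 4.24 and 3.34 CPM with PBS and 1.19, 1.49, 1.79 and 1.21 CPM with D.f. extract and fell by 1.31 ± 0.26 on the log2 scale (adjusted p = 0.0131; 0.0609 without D.f. library 3 of the RNase III set). In the epithelium, Muc1, a membrane mucin, stood at 207, 308 and 174 CPM with PBS and 454, 392.4, 399.9 and 341 CPM with D.f. extract and rose by 0.86 ± 0.17 (adjusted p = 0.0138; 0.06002 without D.f. library 3 of the RNase III set and 0.0778 without the knockout-set PBS library). In the endothelium, Ednrb, the endothelin B receptor, stood at 147, 91.3 and 161 CPM with PBS and 58.4, 44.2, 108 and 139 CPM with D.f. extract and fell by 0.89 ± 0.24 (adjusted p = 0.0438; 0.141 without D.f. library 3 of the RNase III set, 0.131 without D.f. library 4 of the RNase III set and 0.0978 without D.f. library 3 of the knockout set).

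Among genes of tissue next to the lung, Cidec and Adrb3 were the 2 of 11 tested adipose genes called lower (-1.55 ± 0.35 and -1.15 ± 0.24), in a list whose level differed between the PBS libraries and whose count was 5 without PBS 1 of the RNase III set, 0 without D.f. library 3 of the RNase III set, the knockout-set PBS library or D.f. library 3 of the knockout set and 1 without D.f. library 4 of the RNase III set. The alveolar macrophage list also holds Cidec, which counts among its falls. Cidec had an adjusted p of 0.0234 (0.0901 without D.f. library 3 of the RNase III set, 0.0842 without D.f. library 4 of the RNase III set, 0.0759 without the knockout-set PBS library and 0.0659 without D.f. library 3 of the knockout set) and Adrb3 of 0.0167 (0.0695 without D.f. library 3 of the RNase III set, 0.0826 without the knockout-set PBS library and 0.0525 without D.f. library 3 of the knockout set). Of 10 tested erythroid genes and 5 of skeletal muscle none was called by edgeR, with medians of -0.12 and -0.10, and 1 skeletal muscle gene and no erythroid gene had an unadjusted p under 0.05 or was called by DESeq2. Of 5 tested thymocyte and lymph node genes 2 were called higher, Ccr7 and Fcer2a, which other lists also hold, and 4 without PBS 1 of the RNase III set.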
